A study of Mus musculus with 22 samples.

Results

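The Sox transcription factors described here are 10 mouse genes, Sox2, Sox4, Sox5, Sox6, Sox8, Sox9, Sox10, Sox11, Sox17 and Sox18, taken by name from a table of 48440 gene rows. They were measured by RNA sequencing of bulk tumours in 22 libraries. All 10 rows were found, and 9 had enough counts to be tested, Sox10 being the exception. Another 10 Sox genes of the table were read beside them.

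The tumours fell into 3 genotypes. Combined tumours (8 libraries) were labelled SS18-SSX+/- and Snf5-/-, which means 1 copy of the synovial sarcoma fusion gene and no intact copy of Smarcb1, here called by its older name Snf5. Snf5-null tumours (8 libraries) were labelled SNF5-/- with no fusion. SS18-SSX tumours (6 libraries) were labelled SS18-SSX+/- with no loss of Smarcb1. Cre recombinase, which switches such alleles, was named in the titles as Myf5Cre, expressed from the Myf5 gene of muscle progenitors, or as TATCre, a Cre protein that crosses cell membranes. Together the labels gave combined Myf5Cre (4 libraries), combined TATCre (4), Snf5-null Myf5Cre (3), Snf5-null TATCre (5), SS18-SSX Myf5Cre (3) and SS18-SSX with no Cre stated (3). The strain field opens with C57BL/6 and then counts up by library, so the strain of the others is uncertain, and ages, tumour sites and the number of animals are not given in the sources used here. No normal tissue was part of the series, so levels are compared between tumour genotypes. Spread between libraries, which may be partly technical, is all that the p-values take in.

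Sox proteins bind DNA in its minor groove through a domain shared with the testis-determining factor Sry, and bend it. They usually act with a partner factor, and the subgroups mark different lineages. SoxB1 proteins (Sox2 and its relatives Sox1 and Sox3) keep neural progenitors undifferentiated, SoxC proteins (Sox4, Sox11) act in progenitors as they begin to differentiate, and SoxD proteins (Sox5, Sox6) lack an activation domain of their own and assist other Sox factors. SoxE proteins (Sox8, Sox9, Sox10) direct neural crest, glia and cartilage, and SoxF proteins (Sox17, Sox18) act in endoderm and blood vessels. The SS18-SSX fusion joins the SWI/SNF (BAF) chromatin remodelling complex, of which Smarcb1 is also a subunit, and SOX2 is a known downstream gene of the fusion in human synovial sarcoma.

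RefSeq promoter windows (build GRCm38.p6, 250 bases before to 50 after an annotated start) were matched for 6 of the 10 members, Sox2, Sox4, Sox5, Sox6, Sox8 and Sox11. Sox9, Sox10, Sox17 and Sox18 had no entry. The 4 windows below are shown because these genes carry the differences between genotypes described later: Sox2 and Sox11 were most abundant in SS18-SSX tumours, Sox8 in combined tumours, and Sox5 was low in combined tumours alone among the genotypes. Capitals mark Sox-type heptamers, searched on both strands in 8 forms (the form AACAAAG, the form AACAATG, the form ATCAAAG, the form ATCAATG, the form TACAAAG, the form TACAATG, the form TTCAAAG and the form TTCAATG), and those that end in CAAAG overlap the core of Tcf/Lef motifs. Sequences run 5′ to 3′ on the strand of the gene.
Sox2 (chr3:34649745-34650044, plus strand): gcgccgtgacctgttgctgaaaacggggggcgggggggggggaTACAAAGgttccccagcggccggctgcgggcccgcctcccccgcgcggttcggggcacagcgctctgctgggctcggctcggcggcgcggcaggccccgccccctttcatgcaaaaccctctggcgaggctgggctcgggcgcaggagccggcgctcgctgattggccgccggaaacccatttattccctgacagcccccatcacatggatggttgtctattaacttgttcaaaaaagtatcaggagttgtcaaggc
Sox11 (chr12:27342669-27342968, minus strand): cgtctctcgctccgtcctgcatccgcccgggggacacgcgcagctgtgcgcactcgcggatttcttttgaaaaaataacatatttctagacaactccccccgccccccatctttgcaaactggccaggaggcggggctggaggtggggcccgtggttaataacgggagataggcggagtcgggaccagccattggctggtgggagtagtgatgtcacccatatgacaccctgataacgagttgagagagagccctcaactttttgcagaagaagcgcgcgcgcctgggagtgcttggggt
Sox8 (chr17:25570637-25570936, minus strand): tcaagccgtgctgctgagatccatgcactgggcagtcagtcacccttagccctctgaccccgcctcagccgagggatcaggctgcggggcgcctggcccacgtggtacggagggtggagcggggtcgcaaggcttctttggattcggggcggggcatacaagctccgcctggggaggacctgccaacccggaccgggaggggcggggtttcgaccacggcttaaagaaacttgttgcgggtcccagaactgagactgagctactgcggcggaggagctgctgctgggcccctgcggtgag
Sox5 (chr6:143947057-143947356, minus strand): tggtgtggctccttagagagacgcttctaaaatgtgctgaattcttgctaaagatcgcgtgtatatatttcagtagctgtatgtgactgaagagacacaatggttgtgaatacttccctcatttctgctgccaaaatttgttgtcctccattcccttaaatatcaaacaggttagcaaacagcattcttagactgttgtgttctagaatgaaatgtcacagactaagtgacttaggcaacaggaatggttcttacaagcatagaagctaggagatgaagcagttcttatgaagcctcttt
The Sox2 window held 1 heptamer, TACAAAG, at base 44, and the other 3 held 0. Of 32841 windows of this length, 24.6% held at least 1, so a match is common and describes the letters only. The windows of Sox2, Sox11 and Sox8 had 27, 21 and 21 CpG dinucleotides, against a median of 7 over all windows, and 15.5%, 24.8% and 24.8% of all windows had as many. The Sox5 window had 3, a number that 76.7% of windows reached. It belongs to a start inside the gene, which is annotated on the minus strand from 143828425 to 144781977. The window therefore does not cover the 5′ end of the gene, at 144781977. The windows of Sox2 and Sox11 lie wholly upstream of the 5′ ends annotated for these genes, at 34650405 and 27342574. The Sox8 window covers the annotated 5′ end of its gene, at 25570686. Sox6 had 6 windows in the table and each held at least 1 heptamer, while the single Sox4 window held 0.

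Total counts ran from 8642648 to 25177722 per library. Smarcb1 stood between 0.909 and 3.66 CPM (counts scaled to a common library size) in combined, 10.6 and 26.9 in Snf5-null and 47.1 and 111 in SS18-SSX libraries, so every library labelled as lacking it was below every SS18-SSX library, and no combined and Snf5-null libraries overlapped. Library N49 of combined TATCre (r = 0.855 to 0.875 with its group over log2 CPM of all tested genes), N1 of Snf5-null TATCre (0.882 to 0.892) and N381 of SS18-SSX Myf5Cre (0.859 and 0.875) stood apart from their groups. The most alike pairs were N31 and N33 of Snf5-null Myf5Cre (0.987), N3 and N4 of combined Myf5Cre (0.984) and N43L and N43R of Snf5-null TATCre (0.982, a shared tag). These pairs still differed beyond counting noise, with a lowest chi-square per degree of freedom of 39.5 over all pairs in 1 group. The column names of the SS18-SSX libraries carry other number series than the rest, 1 for each of their groups. What a series stands for is not stated in the labels, and series and genotype cannot be told apart there.

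Per base of exon, Sox4 was the most abundant member in combined tumours (median 24.2 CPM per kb), followed by Sox8 (12.7), and in Snf5-null tumours (26.4), followed by Sox18 (12.2). In SS18-SSX tumours Sox2 came first (18.4 CPM per kb), then Sox4 (13.0) and Sox11 (8.14). Sox10 was last in each genotype. Thus each genotype had a different second or leading Sox transcript, while Sox4 was among the top 2 in each of them.

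**Figure D1:**
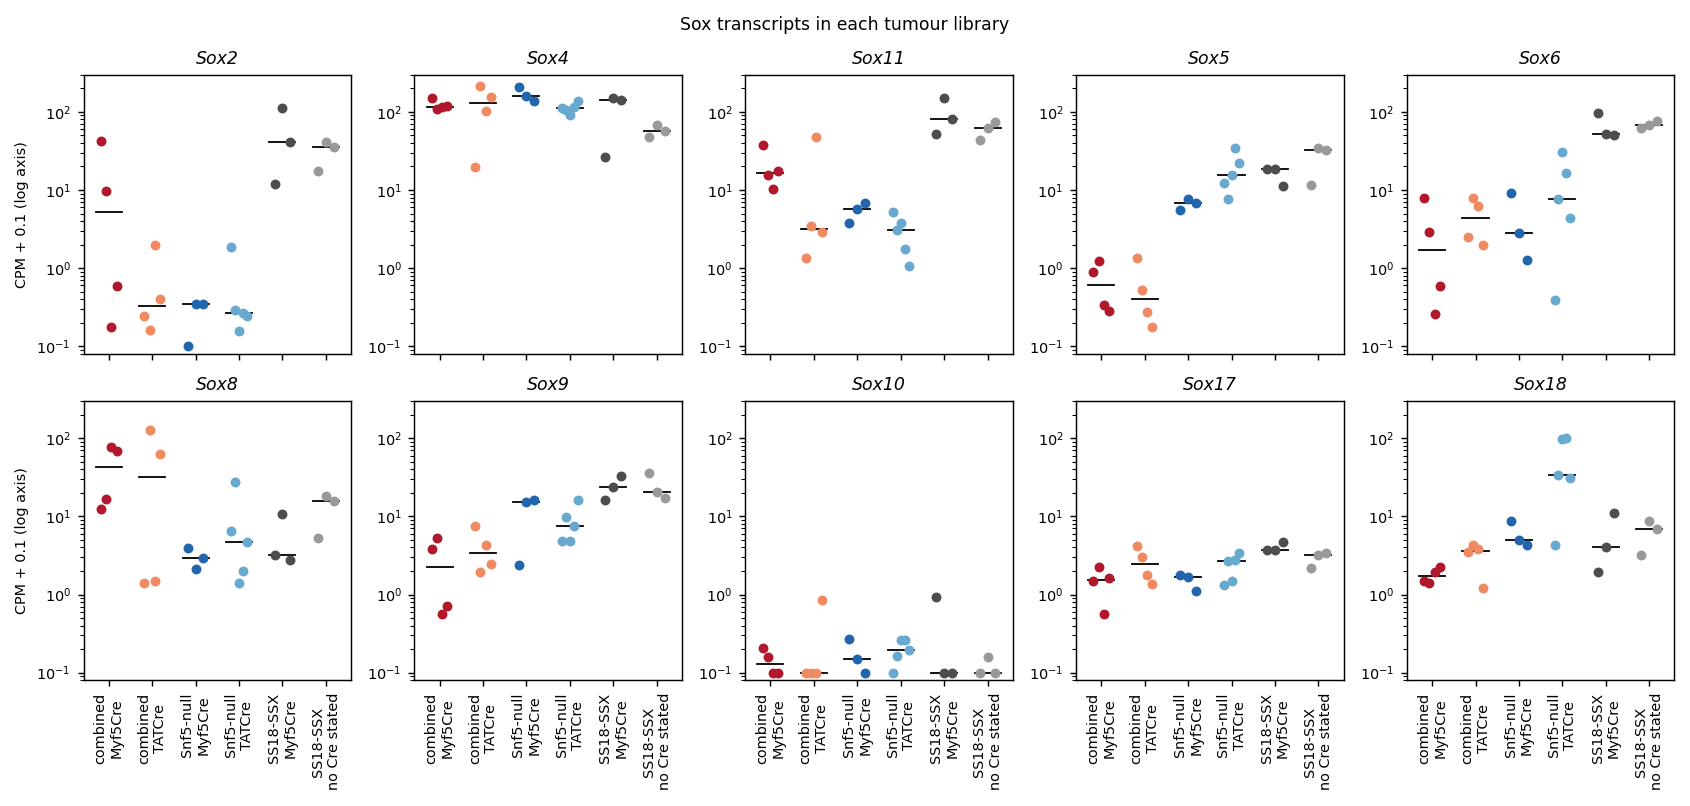
Each point is 1 tumour library and each bar the group median, as CPM + 0.1 on a log axis, with a panel per gene and the 6 groups along the horizontal axis. Sox5 in the 8 combined libraries (0.0751 to 1.25 CPM) sits below all other libraries, and Sox2 in combined Myf5Cre tumours spreads from 0.0776 to 42.6 CPM.

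Adjusted p-values below come from edgeR's quasi-likelihood test over 18929 genes with Benjamini-Hochberg adjustment, with calls made below 0.05. Fold changes are log2 with a standard error (SE), derived as the absolute log2 fold change over the square root of the test's F statistic. In combined against Snf5-null tumours 3 members were higher (Sox2, Sox8, Sox11) and 3 lower (Sox5, Sox9, Sox18), where 49.6% of all tested genes were called, 29.1% higher and 20.5% lower. In combined against SS18-SSX tumours 1 member was higher (Sox8) and 6 lower (Sox2, Sox5, Sox6, Sox9, Sox11, Sox18), against 45% of all genes, 23.1% higher and 21.9% lower. In Snf5-null against SS18-SSX tumours 1 member was higher (Sox18) and 4 lower (Sox2, Sox6, Sox11, Sox17), against 48.2% of all genes, 22.3% higher and 25.9% lower. Calls were thus common in the whole table, and the sizes and the spread of the members say more than their number. The median log2 fold change of all genes in the first comparison was 0.235 with TMM and 0.12 with RLE scaling, and the called members moved by at least 1.64 there. The 3 comparisons share libraries and are not independent of each other.

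**Figure D2:**
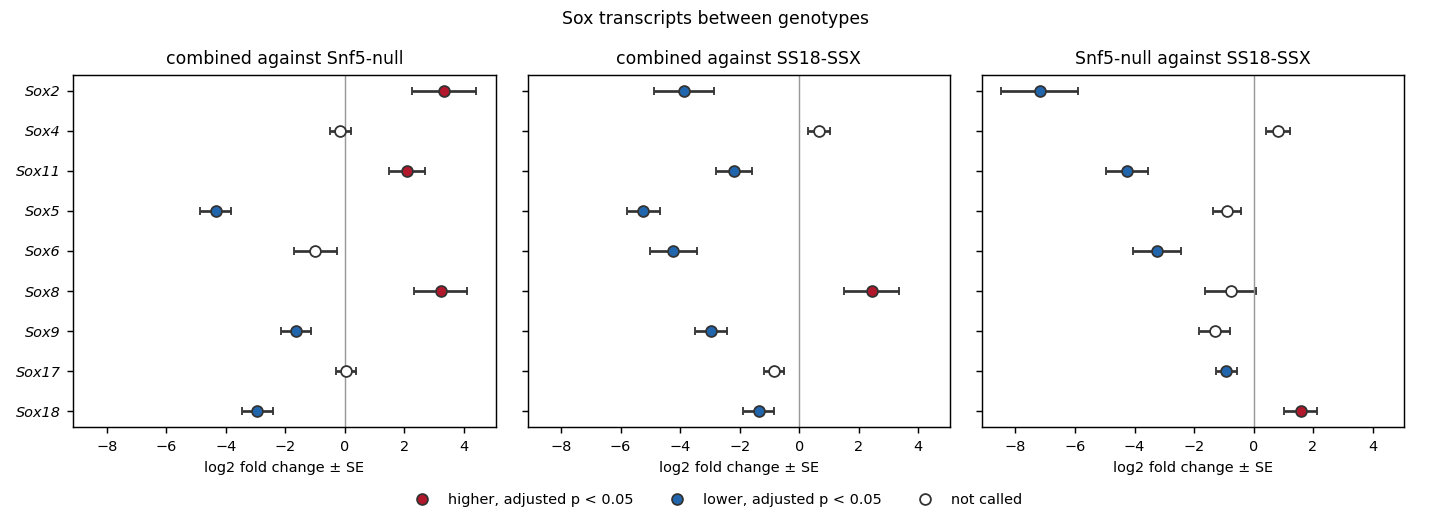
Log2 fold changes with SE of the 9 tested members (rows) in the 3 genotype comparisons (panels), filled red where higher and blue where lower at an adjusted p under 0.05, open where not called. Sox2 and Sox11 lie right of 0 for combined against Snf5-null and left of 0 in both comparisons with SS18-SSX.

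Sox2 (ENSMUSG00000074637, chromosome 3, 34650405 to 34652461, plus strand, GRCm38), the SoxB1 factor of pluripotent and neural progenitor cells, was high in every SS18-SSX tumour, near the detection limit in Snf5-null tumours and divided in combined tumours. In combined Myf5Cre tumours it stood at 42.6 CPM in N1, 9.69 in N2, 0.0776 in N3 and 0.485 in N4. In combined TATCre tumours it was at 0.0617 in 78774, 1.87 in 78777, 0.3 in 78780 and 0.146 in N49. Only N1 and N2 of the 8 combined libraries therefore came near the level of SS18-SSX tumours. Snf5-null Myf5Cre tumours had 0 in N30, 0.249 in N31 and 0.25 in N33, and Snf5-null TATCre tumours 1.74 in N1, 0.0551 in N43L, 0.164 in N43R, 0.19 in N49 and 0.146 in N51. SS18-SSX Myf5Cre tumours had 11.9 in N381, 112 in N428 and 40.6 in N460, and SS18-SSX tumours with no Cre stated 17.2 in A, 41.3 in B and 35.0 in N2. Snf5-null and SS18-SSX libraries did not overlap, while the combined range reached into both.

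Sox2 was lower in Snf5-null than in SS18-SSX tumours by -7.19 ± 1.29 (SE, adjusted p = 0.000209, n = 8 and 6), and that call held in all 30 alternatives, between -8.3 and -6.07. It was lower in combined than in SS18-SSX tumours by -3.86 ± 1.01 (adjusted p = 0.00506), but not with Cre left out of the model (-2.64, adjusted p = 0.0686) or within Myf5Cre (-2.05, adjusted p = 0.238). The excess of combined over Snf5-null tumours, 3.33 ± 1.09 (adjusted p = 0.0174), was found within Myf5Cre (6.25 ± 1.85, adjusted p = 0.0157) and not within TATCre (0.41 ± 1.32, adjusted p = 0.831). That call was lost without combined Myf5Cre N1 (2.2, adjusted p = 0.0788), combined TATCre 78777 (2.41, adjusted p = 0.106) or Snf5-null Myf5Cre N30 (2.89, adjusted p = 0.0671). In order of group medians Sox2 ran from SS18-SSX Myf5Cre (40.6 CPM) through SS18-SSX with no Cre stated (35.0), combined Myf5Cre (5.09), Snf5-null Myf5Cre (0.249) and combined TATCre (0.223) to Snf5-null TATCre (0.164), and all 5 neighbouring pairs overlapped.

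The SoxC genes differed from each other. Sox4 (chromosome 13, 28948919 to 28953713, minus strand), which acts in progenitors and immature lymphocytes, had 19.4, 116 and 211 CPM in combined tumours (lowest, median and highest), 89.8, 127 and 208 in Snf5-null tumours and 26.5, 62.2 and 148 in SS18-SSX tumours. No genotype comparison called it: -0.16 ± 0.35 (adjusted p = 0.727) for combined against Snf5-null, 0.66 ± 0.38 (0.164) for combined against SS18-SSX and 0.82 ± 0.39 (0.0879) for Snf5-null against SS18-SSX. The low combined library was TATCre N49. Without it Sox4 passed the test in combined against SS18-SSX (0.89, adjusted p = 0.0144) and in Snf5-null against SS18-SSX (0.81, adjusted p = 0.0214), and the sign of combined against Snf5-null turned (0.08, adjusted p = 0.806). Snf5-null tumours also exceeded SS18-SSX tumours in Sox4 without SS18-SSX Myf5Cre N428 (1.12, adjusted p = 0.0387) or N460 (1.09, adjusted p = 0.0445). Of the Sox4 exon bases, 54.6% lie opposite the antisense gene Gm26735, which had at most 23 counts in any library, and whether strand was used in the counting is not stated in the labels.

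Sox11 (chromosome 12, 27334264 to 27342574, minus strand), a SoxC factor of immature neurons, had the same genotype order as Sox2. In combined Myf5Cre tumours it was at 37.5 CPM in N1, 15.7 in N2, 10.2 in N3 and 17.2 in N4, and in combined TATCre tumours at 3.33 in 78774, 47.2 in 78777, 2.78 in 78780 and 1.25 in N49. So 78777 was high among the TATCre libraries and all 4 Myf5Cre libraries lay above the other 3. Snf5-null Myf5Cre tumours had 3.73 in N30, 5.67 in N31 and 6.69 in N33, and Snf5-null TATCre tumours 5.17 in N1, 3.69 in N43L, 1.64 in N43R, 2.98 in N49 and 0.976 in N51. SS18-SSX Myf5Cre tumours had 52.4 in N381, 152 in N428 and 81.1 in N460, and those with no Cre stated 43.5 in A, 61.8 in B and 73.5 in N2. Every Snf5-null library was below every SS18-SSX library, and combined libraries overlapped with both.

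Sox11 was lower in Snf5-null than in SS18-SSX tumours by -4.26 ± 0.7 (adjusted p = 9.07e-05), in all 30 alternatives. Combined tumours exceeded Snf5-null tumours by 2.08 ± 0.61 (adjusted p = 0.00937), with 1.91 ± 0.92 (adjusted p = 0.119) within Myf5Cre and 2.24 ± 0.78 (adjusted p = 0.0356) within TATCre. Without combined TATCre 78777 the difference was 0.84 (adjusted p = 0.0697). Combined tumours were below SS18-SSX tumours by -2.18 ± 0.61 (adjusted p = 0.00779), and by -3.42 without 78777. Neither Cre label alone gave that call (-2.24, adjusted p = 0.0542 within Myf5Cre, and -2.12, adjusted p = 0.08 for TATCre against no Cre stated). Of the summed Sox4 and Sox11 level per exon length, Sox11 made up a median of 6.26% in combined tumours (0.902% to 20.8%), 1.82% in Snf5-null tumours (0.405% to 2.74%) and 35.8% in SS18-SSX tumours (24.9% to 53.3%).

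The SoxD genes Sox5 and Sox6 had the largest fitted reductions of the tested members in combined relative to SS18-SSX tumours, and Sox5 also relative to Snf5-null tumours. Sox5 (chromosome 6, 143828425 to 144781977, minus strand), a cofactor of Sox9 in cartilage, was at 0.802 CPM in N1, 1.14 in N2, 0.233 in N3 and 0.182 in N4 of combined Myf5Cre, and at 0.432 in 78774, 0.175 in 78777, 0.0751 in 78780 and 1.25 in N49 of combined TATCre. Those are 1 to 19 counts per library. Snf5-null Myf5Cre tumours had 5.42 in N30, 7.57 in N31 and 6.63 in N33, and Snf5-null TATCre tumours 12.3 in N1, 15.5 in N43L, 34.2 in N43R, 7.47 in N49 and 22.4 in N51. SS18-SSX Myf5Cre tumours had 18.2 in N381, 18.6 in N428 and 11.2 in N460, and those with no Cre stated 11.5 in A, 34.2 in B and 32.8 in N2. All 8 combined libraries lay below all 14 others.

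Sox5 was the only member whose combined and Snf5-null libraries did not overlap (9.33% of all tested genes did not overlap, 2.97% with every combined library above and 6.36% with every combined library below the Snf5-null ones). Its log2 fold change was -4.34 ± 0.52 (adjusted p = 3.63e-06, 20.3-fold lower) in combined against Snf5-null tumours and -5.24 ± 0.55 (adjusted p = 4.96e-06, 37.9-fold lower) in combined against SS18-SSX tumours. Within Myf5Cre these were -3.44 ± 0.73 (adjusted p = 0.00168) and -4.73 ± 0.76 (adjusted p = 0.000546), and within TATCre (no Cre stated for SS18-SSX) -5.24 ± 0.75 (adjusted p = 0.00012) and -5.76 ± 0.79 (adjusted p = 0.000324). The calls held in all 31 and all 30 alternatives. Snf5-null and SS18-SSX tumours overlapped widely in Sox5, with a difference of -0.9 ± 0.48 (adjusted p = 0.127).

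Sox6 (chromosome 7, 115470872 to 116038796, minus strand), the partner of Sox5 in cartilage and a factor of fast muscle fibres and red cells, followed another order. It had 0.155, 2.59 and 7.89 CPM in combined tumours, 0.291, 5.98 and 30.4 in Snf5-null tumours and 50.5, 65.3 and 97.7 in SS18-SSX tumours (lowest, median and highest). Every SS18-SSX library was above all other libraries. Sox6 was lower in combined than in SS18-SSX tumours by -4.23 ± 0.8 (adjusted p = 0.000454, 18.7-fold) and in Snf5-null than in SS18-SSX tumours by -3.24 ± 0.8 (adjusted p = 0.00281, 9.47-fold), which for TATCre against no Cre stated was -2.54 (adjusted p = 0.0528). Between combined and Snf5-null tumours it was at -0.99 ± 0.71 (adjusted p = 0.255). So of the pair, Sox5 was low where fusion and Smarcb1 loss were combined, and Sox6 in both genotypes labelled as lacking Smarcb1. Sox5 made up a median of 18.7% of the summed SoxD level per exon length in combined tumours, 71.2% in Snf5-null tumours and 22.7% in SS18-SSX tumours. The combined range (2.84% to 60.8%) overlapped with both others, and the Snf5-null range (34.5% to 97.8%) lay above that of SS18-SSX tumours (16.0% to 33.95%). Sox2, Sox6 and Sox11 were the 3 members with every Snf5-null library below every SS18-SSX library, a pattern of 10.1% of all tested genes, with 8.27% the other way and 18.3% in all.

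Of the SoxE genes, Sox8 was higher and Sox9 lower in combined tumours. Sox8 (chromosome 17, 25565892 to 25570686, minus strand), a factor of neural crest, glia and muscle satellite cells, was at 12.2 CPM in N1, 16.8 in N2, 77.3 in N3 and 68.4 in N4 of combined Myf5Cre. In combined TATCre it was at 126 in 78774, 1.4 in 78777, 62.3 in 78780 and 1.32 in N49. The 4 combined libraries with the most Sox8, namely 78774, N3, N4 and 78780, had at most 0.485 CPM of Sox2, whereas N1 and N2 had both transcripts. Library 78777 had the most Sox11 of the combined tumours with little Sox8, and N49 had little of Sox2, Sox8 and Sox11. Snf5-null Myf5Cre tumours had 3.79 in N30, 2.04 in N31 and 2.88 in N33, and Snf5-null TATCre tumours 6.34 in N1, 1.32 in N43L, 1.91 in N43R, 27.4 in N49 and 4.59 in N51. SS18-SSX Myf5Cre tumours had 3.08 in N381, 10.5 in N428 and 2.64 in N460, and those with no Cre stated 5.14 in A, 18.2 in B and 15.7 in N2. Ranges of all 3 genotypes overlapped.

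Combined tumours had more Sox8 than Snf5-null tumours, by 3.22 ± 0.89 (adjusted p = 0.0066), with 3.91 ± 1.41 (adjusted p = 0.0414) within Myf5Cre and 2.52 ± 1.08 (adjusted p = 0.0783) within TATCre. Against SS18-SSX tumours it was higher by 2.44 ± 0.92 (adjusted p = 0.0374). This second call was lost in 11 of 30 alternatives: within either Cre label (3.01, adjusted p = 0.0886, and 1.87, adjusted p = 0.287) and without any of SS18-SSX Myf5Cre N381 or N460, SS18-SSX A, B or N2, combined TATCre 78774 or 78780, and combined Myf5Cre N3 or N4 (1.87 to 2.61, adjusted p = 0.0504 to 0.0916). Part of the Sox8 exons, 10.6%, lies opposite the gene 2810468N07Rik, which was also highest in combined libraries, at 14.1 CPM in 78780, 9.24 in N3 and 5.15 in N4. Its part in the Sox8 counts was not tested.

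Sox9 (chromosome 11, 112782224 to 112787760, plus strand), the main regulator of cartilage cells, had 0.466, 3.01 and 7.32 CPM in combined tumours, 2.26, 8.5 and 16.2 in Snf5-null tumours and 16.1, 22.2 and 35.3 in SS18-SSX tumours (lowest, median and highest). Combined N3 (0.466) and N4 (0.606) were the lowest libraries, and every combined library was below every SS18-SSX library. The gene was lower in combined than in SS18-SSX tumours by -2.95 ± 0.54 (adjusted p = 0.000381), in all 30 alternatives, and than in Snf5-null tumours by -1.64 ± 0.51 (adjusted p = 0.0125), which within TATCre was -1.11 (adjusted p = 0.207). In Snf5-null against SS18-SSX tumours it was at -1.31 ± 0.53 (adjusted p = 0.0505), just beyond the threshold. It passed there with DESeq2 (-1.27, adjusted p = 0.0376) and without Snf5-null TATCre N51 (-1.48) or, through the shared spread, combined TATCre N49 or 78774 or combined Myf5Cre N2 or N3 (each -1.31, adjusted p = 0.0361 to 0.0497). Sox5, Sox6 and Sox9 were thus the 3 members with every combined library below every SS18-SSX library, a pattern of 4.27% of all tested genes, with 4.1% the other way and 8.38% in all. Sox8 made up a median of 88.5% of the summed SoxE level per exon length in combined tumours (19.3% to 99.6%), 26.7% in Snf5-null tumours (15.0% to 78.9%) and 27.9% in SS18-SSX tumours (9.79% to 54.7%).

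Sox10 (chromosome 15, 79154908 to 79165240, minus strand), which Schwann cells and melanocytes need, had 0 to 10 counts in combined, 0 to 3 in Snf5-null and 0 to 17 in SS18-SSX libraries, and 11 of 22 libraries had 0. A count of 0 allows up to 3 counts, or 0.11 to 0.328 CPM depending on the library. The highest values were 0.844 CPM in SS18-SSX Myf5Cre N381 and 0.751 CPM in combined TATCre 78780. At this depth no difference between genotypes could be read from it.

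Markers of cartilage and of Schwann and glial cells were read beside the SoxE and SoxD genes. In bulk tumours, fewer cells of a type and less RNA per cell cannot be told apart. Combined against Snf5-null tumours, 3 of 12 cartilage genes rose and 4 fell, with a median log2 fold change of 0.21 against 0.235 for all genes. Col2a1, the main cartilage collagen, was higher by 6.09 ± 1.2 (adjusted p = 0.000508) and Col9a2 by 5.55 ± 0.96, while the matrix proteins Comp (-5.87 ± 0.86) and Matn1 (-5.31 ± 1.12) were lower. Relative to SS18-SSX tumours, 3 were higher in Snf5-null tumours, led by Matn1 (7.05 ± 1.41) and Matn3 (4.79 ± 1.02), and 3 lower, led by Col9a2 (-7.25 ± 1.04) and Col2a1 (-7.78 ± 1.33). The comparison of combined with SS18-SSX tumours had 1 higher, Col11a2 (3.56 ± 1.04), and 2 lower, Comp (-4.83 ± 0.84) and Chad (-4.8 ± 1.32). The higher count there became 2 without SS18-SSX Myf5Cre N381 or N428, Snf5-null TATCre N1, or combined TATCre N49 or 78774, and the lower count 1 without N381. Their summed level was 459 to 2059 CPM in combined, 115 to 1731 in Snf5-null and 366 to 6368 in SS18-SSX libraries. Col2a1, a direct Sox9 target in cartilage, had a median of 527 CPM in combined, 1.62 in Snf5-null and 1595 in SS18-SSX tumours, so its order between combined and Snf5-null tumours was the opposite of that of Sox9. The part of cartilage cells in the Sox values was not tested.

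Of 12 Schwann and glial genes, 11 of them tested, 4 rose and 4 fell in combined relative to Snf5-null tumours (median -0.2 against 0.235 for all genes). The neurotrophin receptor Ngfr (5.42 ± 1) and the neuregulin receptor Erbb3 (2.97 ± 0.67) were higher, and Egr2 (-3.19 ± 0.39) and myelin basic protein Mbp (-4.5 ± 0.58) lower. Only 2 were higher without Snf5-null Myf5Cre N30, N31 or N33 or combined Myf5Cre N1. In Snf5-null against SS18-SSX tumours 4 were higher, led by Egr2 (4.26 ± 0.46) and Mag (3.03 ± 0.73), and 3 lower, led by Foxd3 (-4.16 ± 0.78) and Ngfr (-4.85 ± 0.99). Relative to SS18-SSX tumours, combined tumours had 1 higher, Egr2 (1.07 ± 0.4, adjusted p = 0.0374), which was lost without SS18-SSX N428, N460, B or N2, combined TATCre 78774 or combined Myf5Cre N3 or N4, and 2 were lower, Mbp (-2.31 ± 0.55) and Foxd3 (-1.92 ± 0.65), or 1 without SS18-SSX B. Their summed level was 520.5 to 1011 CPM in combined, 160.5 to 568.4 in Snf5-null and 277 to 1023 in SS18-SSX libraries, and Ngfr alone was at 239 to 920 CPM in combined libraries.

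The SoxF gene Sox18 (chromosome 2, 181669836 to 181671640, minus strand), which acts in lymphatic and blood vessel endothelium, was highest in Snf5-null TATCre tumours. Combined tumours had 1.13, 2.02 and 4.19 CPM (lowest, median and highest). Snf5-null Myf5Cre tumours had 8.64 in N30, 4.83 in N31 and 4.25 in N33, and Snf5-null TATCre tumours 4.19 in N1, 96.2 in N43L, 100.5 in N43R, 33.6 in N49 and 30.8 in N51. SS18-SSX tumours had 1.84, 5.43 and 10.9 (lowest, median and highest). Thus 4 of the 5 Snf5-null TATCre libraries exceeded every other library, and combined libraries were all low.

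Combined tumours had less Sox18 than Snf5-null tumours, by -2.95 ± 0.52 (adjusted p = 0.000199), with -4.09 ± 0.75 (adjusted p = 0.00087) within TATCre and -1.8 ± 0.75 (adjusted p = 0.0727) within Myf5Cre. It was higher in Snf5-null than in SS18-SSX tumours by 1.58 ± 0.55 (adjusted p = 0.023), which for TATCre against no Cre stated was 3.09 ± 0.81 (adjusted p = 0.00691) and within Myf5Cre 0.08 ± 0.78 (adjusted p = 0.948). Combined tumours were below SS18-SSX tumours by -1.36 ± 0.52 (adjusted p = 0.0409), a call lost in 14 of 30 alternatives. Among these were the model without Cre (-1.31, adjusted p = 0.125), both Cre labels alone (-1.72 and -1.0), and leaving out SS18-SSX N460 (-0.89, adjusted p = 0.181), B or N2, Snf5-null TATCre N49, Snf5-null Myf5Cre N31, combined TATCre N49 or 78780, or combined Myf5Cre N1, N2, N3 or N4 (down to -1.45, adjusted p = 0.0507 to 0.0991 for these).

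Sox17 (chromosome 1, 4490931 to 4497354, minus strand), a factor of endoderm and arterial endothelium, had 0.466, 1.61 and 4.03 CPM in combined, 1.0, 1.64 and 3.32 in Snf5-null and 2.08, 3.46 and 4.66 in SS18-SSX tumours (lowest, median and highest). It was lower in Snf5-null than in SS18-SSX tumours by -0.91 ± 0.36 (adjusted p = 0.0441), which was lost in 19 of 30 alternatives. Within Myf5Cre it was -1.47 (adjusted p = 0.0446), and for TATCre against no Cre stated -0.34 (adjusted p = 0.6). The libraries whose omission ended it were all 6 SS18-SSX libraries, Snf5-null TATCre N1 and N43L, Snf5-null Myf5Cre N30, N31 and N33, and combined Myf5Cre N1 and N4 (-0.86 to -0.66). In combined against SS18-SSX tumours it was at -0.85 ± 0.35 (adjusted p = 0.0558), and passed with RLE scaling (-0.92, adjusted p = 0.0435), with DESeq2 (-0.93, adjusted p = 0.0157), within Myf5Cre (-1.51, adjusted p = 0.0281) and without combined TATCre N49 (-0.97) or combined Myf5Cre N2 (-1.0). Combined and Snf5-null tumours differed by 0.05 ± 0.34 (adjusted p = 0.903), a value whose sign turned in 19 of 31 alternatives.

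Over all members, groups next to each other in the order of their medians mostly overlapped. All 5 neighbouring pairs overlapped for Sox2, Sox8, Sox10 and Sox18. For Sox11 3 of 5 did, with gaps on either side of combined Myf5Cre tumours, towards SS18-SSX with no Cre stated and towards Snf5-null Myf5Cre tumours. For Sox4, Sox5, Sox6, Sox9 and Sox17 4 of 5 did. The gap lay below the Snf5-null groups for Sox5, below the SS18-SSX groups for Sox6 and Sox9, above SS18-SSX with no Cre stated, the lowest group, for Sox4, and below SS18-SSX Myf5Cre, the highest group, for Sox17. The share of all tested genes with such gaps was not counted, so whether these numbers are unusual cannot be told.

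Endothelial markers were read beside the SoxF genes. Relative to Snf5-null tumours, 3 of 12 endothelial genes rose and 3 fell in combined tumours (median -0.22 against 0.235 for all genes), with Egfl7 at 0.95 ± 0.19, Cldn5 at 1.38 ± 0.35, Erg at -0.97 ± 0.28 and the angiopoietin receptor Tek at -1.05 ± 0.33. Relative to SS18-SSX tumours, 0 were higher and 5 lower in Snf5-null tumours, among them Erg (-1.52 ± 0.3) and the VEGF receptor Flt1 (-1.35 ± 0.3), or 3 lower without SS18-SSX N460, B or N2 or Snf5-null Myf5Cre N30. Their summed level was 250 to 535 CPM in combined, 223 to 561 in Snf5-null and 223 to 669 in SS18-SSX libraries. In N43L and N43R, the libraries with the most Sox18, it was 223 and 411 CPM, and Cdh5, the cadherin of endothelial cells, was between 17.8 and 60.5 CPM over all Snf5-null libraries. Between combined and SS18-SSX tumours 0 were higher and 3 lower, or 5 without SS18-SSX Myf5Cre N381 or SS18-SSX A, and 1 without N460.

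Leucocyte and muscle markers were read beside all members. Relative to Snf5-null tumours, 0 of 8 leucocyte genes rose and 7 fell in combined tumours, and 6 were higher and 0 lower in Snf5-null than in SS18-SSX tumours, with a summed level of 58.4 to 447 CPM in combined, 1456 to 6180 in Snf5-null and 60.8 to 469 in SS18-SSX libraries. Sox2 and Sox11 were low in the Snf5-null tumours. Snf5-null Myf5Cre libraries, with a leucocyte sum of 3207 to 5302 CPM, had 4.25 to 8.64 CPM of Sox18. Snf5-null TATCre N1, with the highest sum (6180 CPM), had 4.19 CPM of Sox18. Snf5-null TATCre N43L and N43R, with sums of 3904 and 4491 CPM, had 96.2 and 100.5 CPM of Sox18. For N49 and N51 of that group the sums were 1456 and 2980 CPM, with 33.6 and 30.8 CPM of Sox18. Between combined and SS18-SSX tumours 0 leucocyte genes were higher and 2 lower, or 0 lower without SS18-SSX N381 or A and 1 without combined 78774, 78777, 78780, N1 or N4 of Myf5Cre. Of 14 skeletal muscle genes 1 rose, Pax7 (4.75 ± 0.79), and 6 fell in combined relative to Snf5-null tumours, or 1 fell without Snf5-null Myf5Cre N30. Their summed level was 172 to 1681 CPM in combined, 242 to 16860 in Snf5-null and 59.5 to 7148 in SS18-SSX libraries. In Snf5-null TATCre N43L, N43R, N49, N1 and N51 this sum was 16860, 7392, 4297, 2471 and 1374 CPM. Sox6 in these libraries was at 30.4, 16.55, 7.66, 0.291 and 4.29 CPM. For Snf5-null Myf5Cre N30, N31 and N33 the sum was 5254, 423 and 242 CPM, with Sox6 at 9.09, 2.69 and 1.19 CPM. SS18-SSX Myf5Cre N381, N428 and N460 had sums of 3715, 59.5 and 73.7 CPM, with Sox6 at 97.7, 52.6 and 50.5 CPM. SS18-SSX A, B and N2 had sums of 7148, 259 and 210 CPM, with Sox6 at 62.0, 68.65 and 75.6 CPM. Between combined and SS18-SSX tumours 1 muscle gene rose and 0 fell. In Snf5-null against SS18-SSX tumours 2 rose and 2 fell, Pax7 (-6.03 ± 0.85) and the slow myosin gene Myh7 (-3.38 ± 1.25), of which Myh7 was at 1.03 without SS18-SSX Myf5Cre N381. The part of leucocytes and muscle in the Sox values was not tested.

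Each genotype comparison was repeated within a Cre label, as a contrast of the same model of 22 libraries. Combined against Snf5-null Myf5Cre tumours, 2 members were higher (Sox2, Sox8) and 2 lower (Sox5, Sox9), where 31.1% of all genes were called, 15.7% higher and 15.3% lower. With TATCre 1 was higher (Sox11) and 2 lower (Sox5, Sox18), against 31.9% of all genes, 18.1% higher and 13.9% lower. Combined against SS18-SSX Myf5Cre tumours, 0 were higher and 4 lower (Sox5, Sox6, Sox9, Sox17), against 32.4%, 15.5% higher and 16.9% lower. Combined TATCre against SS18-SSX tumours with no Cre stated also had 0 higher and 4 lower (Sox2, Sox5, Sox6, Sox9), against 24%, 14.4% higher and 9.6% lower. Sox5, Sox6 and Sox9 were thus lower in combined tumours under both labels. Snf5-null against SS18-SSX Myf5Cre tumours, 0 were higher and 4 lower (Sox2, Sox6, Sox11, Sox17), against 34%, 14.4% higher and 19.6% lower. Snf5-null TATCre against SS18-SSX tumours with no Cre stated had 1 higher (Sox18) and 2 lower (Sox2, Sox11), against 33.7%, 16.1% higher and 17.6% lower.

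**Figure D3:**
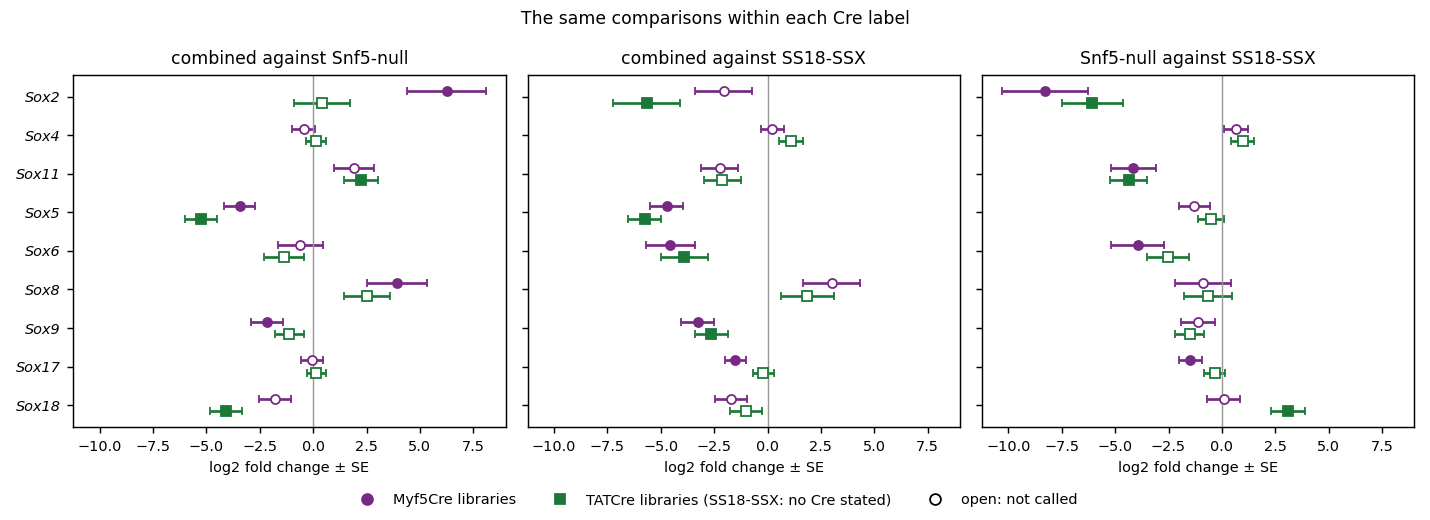
Log2 fold changes with SE of the 9 tested members in the 3 genotype comparisons within a Cre label, from the model of 22 libraries. Circles contrast the Myf5Cre groups and squares the TATCre groups, with no Cre stated for SS18-SSX, filled where called. Sox5 is called in both for combined against Snf5-null and combined against SS18-SSX, whereas Sox2 in combined against Snf5-null is at 6.25 with Myf5Cre and 0.41 with TATCre.

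Cre labels were also compared within a genotype. In Snf5-null tumours Sox18 was the 1 member called, lower in Myf5Cre than in TATCre libraries by -3.17 ± 0.81 (adjusted p = 0.0305, 8.97-fold), where 4.97% of all genes were called, 1.78% higher and 3.19% lower. That call was lost with N43L and N43R summed (-2.8, adjusted p = 0.0685), with N31 and N33 summed (-3, adjusted p = 0.165) and without Snf5-null TATCre N43L (-2.8) or N43R (-2.77) or Snf5-null Myf5Cre N30 (-3.56), N31 (-3.05) or N33 (-2.98). Sox5 was at -1.49 ± 0.68 (adjusted p = 0.222) in the same comparison. In combined tumours 0 members were called by edgeR (all genes 1.82%, with 0.571% higher and 1.25% lower). Sox2 was at 4.43 ± 1.45 with an unadjusted p of 0.00653 and an adjusted p of 0.11, and DESeq2 called it (4.52, adjusted p = 0.0106). Sox2 was the 1 member at an unadjusted p under 0.05 there. Without combined TATCre 78777, the TATCre library with the most Sox2 and Sox11, 1 member was called higher, Sox11, and Sox2 was at 6.26 (adjusted p = 0.0617).

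The interaction asks whether the difference between combined and Snf5-null tumours depended on Cre. By edgeR 0 members were called (all genes 2.42%, with 1.32% higher and 1.1% lower, 2 members at an unadjusted p under 0.05). Sox2 was at 5.85 ± 2.19 (adjusted p = 0.156), with DESeq2 calling it at 5.99 (adjusted p = 0.0267), and Sox18 was at 2.29 ± 1.02 (adjusted p = 0.236). Hence the unlike values of Sox2 within Myf5Cre and within TATCre are not shown by edgeR to differ. Between SS18-SSX Myf5Cre and SS18-SSX with no Cre stated 0 members were called by edgeR and 0 by DESeq2 (all genes 2.11%, with 1.25% higher and 0.866% lower, 0 members at an unadjusted p under 0.05), and Cre and number series cannot be told apart there.

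The relative Sox1 followed Sox2 closely over the libraries (r = 0.947), and Sox3 did so less closely (r = 0.879). Of the 10 other Sox genes 8 were tested, and Sry had 0 counts in every library. In combined against Snf5-null tumours 3 were higher (Sox1, Sox3, Sox21) and 1 lower (Sox7), with a median of 0.73 against 0.235 for all genes. Sox1 had 0.146, 1.13 and 18.0 CPM in combined tumours, 0, 0.078 and 0.38 in Snf5-null tumours and 12.5, 79.0 and 227 in SS18-SSX tumours (lowest, median and highest), and exceeded its Snf5-null level in combined tumours by 4.69 ± 1.08 (adjusted p = 0.00179). The combined libraries with the most Sox1 were Myf5Cre N1 (18.0) and N2 (7.83), as for Sox2. Sox3 had 0 counts in all 8 Snf5-null libraries, so with a floor of 3 counts per library its mean was at least 11.6-fold higher in combined tumours, and at least 107-fold lower in Snf5-null than in SS18-SSX tumours. The bound for combined tumours was 6.75-fold without combined Myf5Cre N1, and their median was 0.419 CPM. Sox21, which antagonises SoxB1 factors in neurons, differed in the same direction by 3.64 ± 1.13 (adjusted p = 0.0131).

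Against SS18-SSX tumours, the other Sox genes showed 0 higher and 4 lower in combined tumours (Sox1, Sox3, Sox7, Sox13, median -2.42 against -0.088 for all genes) and 0 higher and 6 lower in Snf5-null tumours (Sox1, Sox3, Sox13, Sox14, Sox15, Sox21, median -3.06 against -0.061). Sox1 was at -5.07 ± 0.91 (adjusted p = 0.000311) and -9.76 ± 1.28 (adjusted p = 1.16e-05) in these comparisons. Sox7, the other SoxF gene, was reduced in combined tumours relative to Snf5-null tumours (-1.44 ± 0.46, adjusted p = 0.0151) and than in SS18-SSX tumours (-2.23 ± 0.49, adjusted p = 0.00138). Sox13, the other SoxD gene, was lower in combined than in SS18-SSX tumours by -2.62 ± 0.63 (adjusted p = 0.00294). Sox12, the other SoxC gene, was called in no genotype comparison, as Sox4 (0.31 ± 0.27, 0.38 ± 0.29 and 0.07 ± 0.29 in the order used above).

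**Figure D4:**
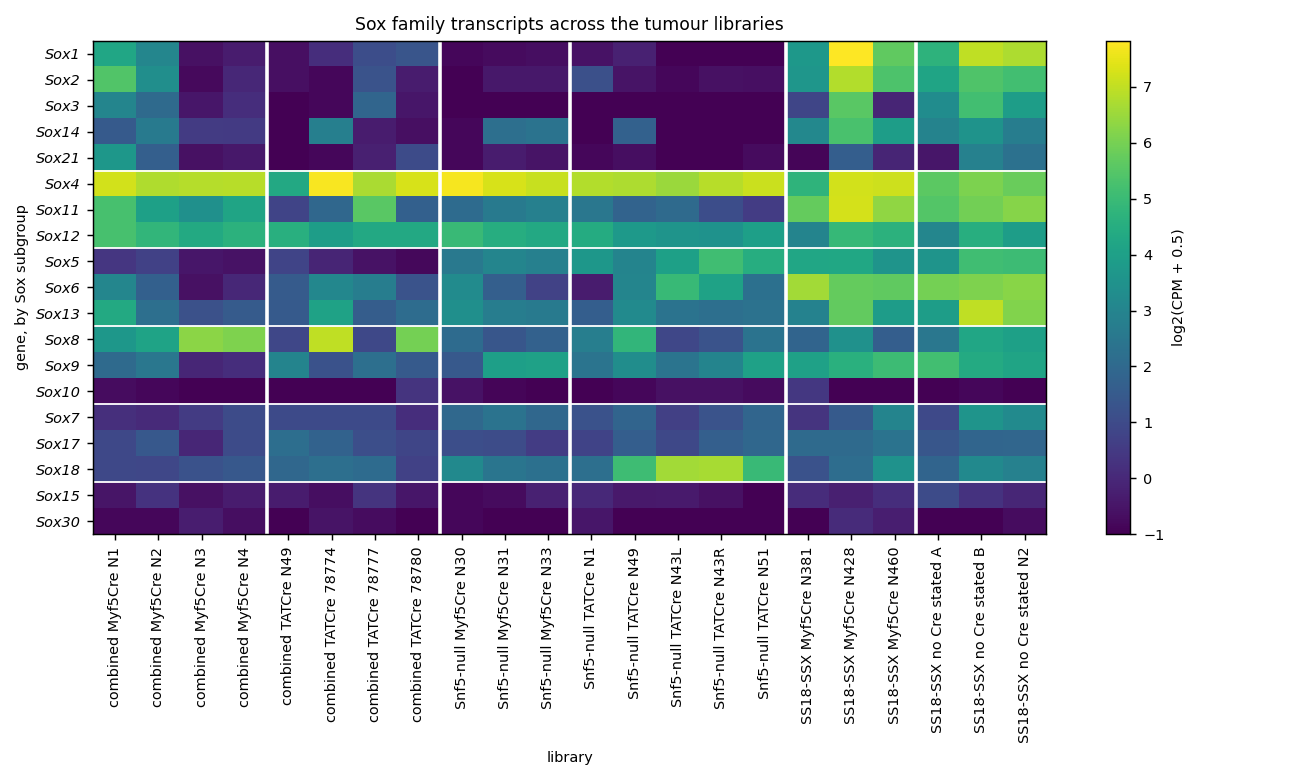
Log2(CPM + 0.5) of 19 Sox genes (rows, by subgroup, SoxB genes at the top) in the 22 libraries (columns), with white lines between groups. Sox1 and Sox2 are bright in all SS18-SSX libraries and in combined Myf5Cre N1 and N2. Sox11 is bright in all SS18-SSX libraries and in combined TATCre 78777, and is at 10.2 to 37.5 CPM in the combined Myf5Cre libraries. Sox3 is at 0.441 to 47.2 CPM in SS18-SSX libraries, and Sox8 is brightest in combined 78774, N3, N4 and 78780.

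Genes that work with Sox2 or mark progenitors were read from a list of 12, of which 11 were tested. Like the other lists, it was chosen with earlier results of these data known, so its medians only describe it. The summed level of the list was 128 to 457 CPM in combined, 66.6 to 713 in Snf5-null and 146 to 705 in SS18-SSX libraries. These ranges overlapped. In combined against Snf5-null tumours 7 were higher and 0 lower (median 4.05 against 0.235 for all genes), among them the paired-box factor Pax6 (6.96 ± 1.17, adjusted p = 0.000117) and Lin28b, which blocks let-7 maturation (7.57 ± 1.52, adjusted p = 0.000581). In Snf5-null against SS18-SSX tumours 7 were lower (median -3.85 against -0.061), led by Pax6 (-8.01 ± 1.23) and the POU factor Pou3f2 (-7.58 ± 1.29), a partner of Sox2 in neural progenitors. The intermediate filament gene Nes was the 1 higher there (1.43 ± 0.56, adjusted p = 0.042), a call lost without SS18-SSX Myf5Cre N381 or N428, SS18-SSX A or N2, Snf5-null TATCre N1 or Snf5-null Myf5Cre N30. In combined against SS18-SSX tumours 1 was higher, Lin28b (5.33 ± 1.36, adjusted p = 0.0041), and 2 lower, Pou3f3 (-4.66 ± 0.99, adjusted p = 0.00112) and Pou3f2 (-2.53 ± 0.92, adjusted p = 0.0323). Lin28b had 0.15, 2.14 and 87.6 CPM in combined and 0.0735, 0.308 and 0.744 in SS18-SSX tumours (lowest, median and highest). It thus spread widely among combined libraries, and the 2 ranges overlapped. The higher count was 2 without SS18-SSX N460, Snf5-null TATCre N1 or combined Myf5Cre N4, and the lower count was 1 without SS18-SSX N428 or N2, combined TATCre 78774 or 78780 or combined Myf5Cre N3 or N4. Pax6 was found in combined tumours with little Sox2 as well: its combined range was 2.04 to 45.2 CPM.

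Of 10 SoxC targets and early neuronal genes, 9 of them tested, 5 rose and 1 fell in combined relative to Snf5-null tumours (median 2.06 against 0.235 for all genes). The RNA-binding protein gene Mex3a (2.06 ± 0.32, adjusted p = 6.26e-05) and Tead2, a reported SoxC target (2.36 ± 0.44, adjusted p = 0.000304), were higher, and Dpysl3 lower (-2.4 ± 0.52, adjusted p = 0.00113). In Snf5-null against SS18-SSX tumours 0 were higher and 5 lower (median -2.41 against -0.061), led by Mex3a (-2.45 ± 0.34) and Tead2 (-3.27 ± 0.47). In combined against SS18-SSX tumours 1 was higher, the neuronal tubulin gene Tubb3 (1.94 ± 0.71, adjusted p = 0.0331), and 1 lower, Dpysl3 (-3.96 ± 0.57, adjusted p = 5.79e-05). The call of Tubb3 was lost without SS18-SSX N381, N460, A or N2, combined TATCre N49 or combined Myf5Cre N1, and the lower count was 2 without SS18-SSX N381, combined TATCre 78777 or 78780 or combined Myf5Cre N1. The summed level of the list was 156 to 352 CPM in combined, 98.3 to 547 in Snf5-null and 404 to 565 in SS18-SSX libraries. Its median was 239 CPM in combined and 273 in Snf5-null tumours, the opposite order to the median fold change. Snf5-null Myf5Cre libraries had 98.3 to 159 CPM and Snf5-null TATCre libraries 150 to 547. Stmn2 was lower in the former than in the latter (-8.08 ± 1.38, adjusted p = 0.0038).

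For each tested member the 2 genes whose log2 CPM was most alike over the 22 libraries were looked up, as a description without a test, since these libraries share genotypes and scaling. Sox2 was most like Sox2ot, the noncoding gene that spans it (Pearson r = 0.949), and Sox1 (0.947). Sox2ot had at most 3.42 CPM in combined, at most 0.174 CPM in Snf5-null and 2.41 to 29.6 CPM in SS18-SSX libraries. Sox8 was most like Olig2 (0.938) and Olig1 (0.927), factors of the oligodendrocyte lineage that neighbour each other on chromosome 16. Olig2 was at 30.1 CPM in combined 78774, 13.7 in N3, 12.4 in N4 and 11.9 in 78780, at 5.83 and 3.91 in combined Myf5Cre N1 and N2, and at 0 and 0.22 in 78777 and N49, so it was high in the 4 combined libraries with the most Sox8. The Snf5-null library with the most Sox8, TATCre N49, also had the most Olig2 of that genotype (3.55 CPM).

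Sox5 was most like the calcium channel gene Cacna1d (0.952), with 0.376, 1.58 and 3.95 CPM in combined, 11.3, 22.1 and 33.7 in Snf5-null and 13.4, 30.6 and 37.4 in SS18-SSX tumours (lowest, median and highest), and Gpr161, an inhibitor of Hedgehog signalling (0.94). Sox11 was most like Ripk4 (0.922) and Camkv (0.917), and Sox6 like the pyruvate dehydrogenase kinase gene Pdk2 (0.908) and the sialidase gene Neu3 (0.904). Sox9 was most like the epoxide hydrolase gene Ephx2 (0.927) and the prostaglandin synthase gene Ptges (0.876), and Sox18 like Nfe2l1 (0.927) and Endod1 (0.926), of which Endod1 had at most 21.7 CPM in combined libraries and reached 462 CPM in Snf5-null ones. The lowest values of likeness belonged to Sox17, with the protocadherin gene Pcdhb10 (0.842) and 5033417F24Rik (0.841), and to Sox4, with Eml4 (0.821) and its antisense neighbour Gm26735 (0.812). Among the members themselves Sox2 and Sox11 were the most alike (r = 0.885, n = 22), and Sox5 and Sox9 came next (0.764).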

How the data were processed

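RNA from fresh frozen mouse tumours was sequenced in 22 libraries made with a stranded mRNA kit, per the labels' protocols. The authors deposited raw gene counts as whole numbers. Per the submitters' processing notes the build was mm10 and the tools included featureCounts, RSEM, STAR 2.7.5a, DESeq2 and cutadapt, in roles not described there, and the strand setting and the treatment of reads with several matches are not given in the sources used here. Gene names and coordinates came from GENCODE M21 (GRCm38), which matched 48058 of 48440 identifiers. Genes with too few counts were left out (filterByExpr of edgeR, minimum count 10, minimum total 15), which kept 18929 genes and 99.91% of counts. One edgeR 4.0.16 quasi-likelihood model (R 4.3.3, TMM scaling) of 6 groups over all 22 libraries gave each contrast, a genotype being the mean of its Cre groups, with Benjamini-Hochberg adjustment over 18929 genes and calls at 0.05. CPM uses TMM-scaled library sizes, and likeness is Pearson's r over log2 CPM with a prior count of 2. A count of 0 was read as up to 3 counts per library, which covers counting error only. Alternatives were RLE scaling, no filter, genotype alone, either Cre label alone, alike libraries summed, DESeq2 1.42.0, leaving out each library and, chosen later, a block of shared library tags. Results for a Cre label alone are contrasts of the main model, so their spread was estimated from all 22 libraries. The scripts were tested on simulated data. The members and gene lists were chosen with earlier results of these data known. All members are described, with up to 2 called genes of each list per direction, those of smallest p, and the 2 genes most like each member.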

Additional observations from a re-analysis of the deposited data

Results flagged for a closer look

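3 libraries' values stood apart from the rest of their group by Dixon's test on log2 CPM, in 4 of the 54 groups looked at. The groups were Cre groups and the genotypes that contain them, and chance alone marks about 1 in 20 groups. Gaps and ranges are on the log2 scale here, while levels are given in CPM. Sox2 in Snf5-null TATCre library N1 was at 1.744 CPM, with a gap to the nearest library of 0.756 of the group's range (n = 5), and the same library stood apart over all 8 Snf5-null libraries (0.585). Sox4 in combined TATCre library N49 was at 19.4 CPM, with a gap of 0.701 of the range (n = 8). Sox18 in combined TATCre library 78780 was at 1.127 CPM, with a gap of 0.829 of the range (n = 4). Libraries N1 of Snf5-null TATCre and N49 of combined TATCre also stood apart over all genes.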

How the results depend on the processing

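Of 954 member results by setting, 850 kept their direction and side of the threshold, 66 lost a call, 17 gained one and 21 turned sign. For combined against Snf5-null, the 3 higher members became 1 with TATCre alone and 1 to 3 when single libraries were left out. For combined against SS18-SSX, the 1 higher member became 0 with either Cre label alone and 0 to 2 with single libraries left out. For Snf5-null against SS18-SSX, the 1 higher became 0 with Myf5Cre alone and 1 to 2 with single libraries left out, and lower calls became 2 with TATCre against no Cre stated. The 1 member lower in Myf5Cre than in TATCre Snf5-null tumours became 0 with N43L and N43R summed or N31 and N33 summed, and 0 to 1 with single libraries left out. For Cre in combined tumours DESeq2 called 1, as against 0 (0 to 1 with single libraries left out), and for the interaction 1, as against 0. Signs turned for Sox4 in combined against Snf5-null (0.12 with TATCre alone, -0.37 to 0.08 with single libraries left out) and for Sox17 there (-0.06 with RLE, -0.08 with no filter, -0.12 with genotype alone, -0.04 with Myf5Cre alone, -0.12 with N31 and N33 summed, -0.06 with DESeq2, -0.18 to 0.23 with single libraries left out). With Myf5Cre alone Tubb3 was at -0.78 and Egr2 at -0.17 in combined against SS18-SSX. Myh7 in Snf5-null against SS18-SSX ranged from -3.64 to 1.03 with single libraries left out, 1.03 being without SS18-SSX Myf5Cre N381. The cause was not tested. Over all genes, combined against Snf5-null had 5509 higher calls, or 3423 with N31 and N33 summed, 3665 with genotype alone, 2978 with Myf5Cre alone, 3423 with TATCre alone and 3134 to 6533 with single libraries left out. Combined against SS18-SSX had 4372 higher and 4146 lower, or 2725 and 1817 with TATCre against no Cre stated, and Snf5-null against SS18-SSX 4217 higher, or 2734 with Myf5Cre alone. Cre in Snf5-null had 337 higher and 603 lower, or 691 and 1548 with DESeq2, 74 and 50 with N31 and N33 summed, 185 and 374 with N43L and N43R summed, and 66 to 877 and 56 to 1082 with single libraries left out. Cre in combined had 108 and 236, or 386 and 1087 with DESeq2, lower calls of 118 and 122 with the sums of N31 and N33 and of N43L and N43R, and 34 to 179 and 21 to 432 with single libraries left out. The interaction had 249 and 209, or 847 and 658 with DESeq2, 34 and 45 with N31 and N33 summed, 158 and 101 with N43L and N43R summed, and 29 to 558 and 31 to 495 with single libraries left out. The SS18-SSX groups had 236 and 164, or 768 and 595 with DESeq2, 63 and 52 with no filter, 123 with N31 and N33 summed, 122 with N43L and N43R summed, and 17 to 439 and 16 to 373 with single libraries left out. Combined and Snf5-null libraries share the tags N1 and N49, and nothing in the labels says that a tag pairs them. The deviations of same-tagged libraries from their groups correlated at -0.181 for N1, whose Cre labels differ, and at -0.058 for N49. A fit with these tags as a replicate block, chosen after seeing the data, gave 3 members higher and 3 lower (5295 and 3868 of all genes). For the other comparisons no paired analysis was possible because those groups share fewer than 2 tags.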
